A study of Mus musculus with 4 samples.

Results

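Chemokines and their receptors were followed in mouse kidneys with induced membranous nephropathy, abbreviated MN, in which immune complexes accumulate on the outer face of the glomerular filtration barrier. Members were taken by name: every non-control spot whose gene name was Ccl, Cxcl, Ccr or Cxcr followed by a digit, or Xcl1, Xcr1, Cx3cl1 or Cx3cr1. The rule found 54 genes, 35 ligands and 19 receptors, among 34599 named genes and other targets on the array. They were read by 71 probes on 80 spots.

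RNA came from whole kidneys of female BALB/C mice. The labels give an age of 6 weeks, which is shorter than the timetable below and so not the age at its end. Mice of both groups had received 0.2 mg of cationic bovine serum albumin (cBSA) in complete Freund's adjuvant, so the controls were immunized animals too. Beginning 2 weeks later, MN mice were given cBSA by vein at 13 mg/kg, 3 times a week for 6 weeks. Controls were given saline on the same timetable according to the protocol, and PBS according to the sample labels. There were 2 control and 2 MN samples, each on 1 one-colour Agilent array. The labels do not say whether the samples of a group came from separate animals, so p-values measure only the spread between these samples, which may be technical.

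Chemokines are small secreted proteins, most of them soluble, that bind to glycosaminoglycans and set up gradients along which leukocytes move. Their receptors are G protein-coupled receptors carried mostly by leukocytes, and one receptor often answers to several ligands. In the kidney, tubular cells, mesangial cells, podocytes, endothelium and resident macrophages can all release chemokines in immune-mediated injury. In RNA of a whole organ, a change in the number of cells of a type and a change in RNA per cell cannot be told apart.

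The 2 arrays with replicate number 1 lay on slide 1 and those with number 2 on slide 2. The share of non-control spots well above background ranged from 63.1% to 79.5%. None was saturated, and median signals ranged from 3.18 to 5.37 times local background. Both slide 1 arrays had a spike-in slope outside the range that the software accepts. All 5 proximal tubule markers and all 5 markers of the distal nephron and collecting duct were above background on every array. Adipocyte markers differed between the groups: of 5 genes, 2 were above background on the first control array, 3 on the other control array, and all 5 on both MN arrays. Their summed signal, in multiples of the array's 75th percentile, was 0.204 and 0.190 in control and 4.56 and 5.41 in MN. Adipoq was not above background on either control array. The part of adipose tissue in the differences below was not tested.

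Promoter sequences of the ligands that the results turn on are shown first, with the recognition motif of NF-kB, a transcription factor known to switch on many inflammatory chemokines. Each is the 250 bases before the RefSeq start of the gene (GRCm38.p6), written 5′ to 3′ on the gene's strand, with matches to the NF-kB motif in capitals. Cxcl1 and Ccl9 hold the motif, and Ccl8 and Ccl28 are the ligands with the largest differences.
Cxcl1 promoter, chr5:90890995-90891244, plus strand: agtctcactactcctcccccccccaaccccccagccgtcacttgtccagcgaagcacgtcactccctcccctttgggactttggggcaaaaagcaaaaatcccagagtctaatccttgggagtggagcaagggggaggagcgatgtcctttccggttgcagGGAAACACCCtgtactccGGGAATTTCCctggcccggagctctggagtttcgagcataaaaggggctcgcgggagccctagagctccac
Ccl9 promoter, chr11:83578637-83578886, minus strand: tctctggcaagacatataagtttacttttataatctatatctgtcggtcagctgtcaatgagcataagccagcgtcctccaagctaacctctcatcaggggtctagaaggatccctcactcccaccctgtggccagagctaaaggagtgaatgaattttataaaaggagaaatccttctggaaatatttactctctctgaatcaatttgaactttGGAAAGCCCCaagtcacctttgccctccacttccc
Ccl8 promoter, chr11:82114935-82115184, plus strand: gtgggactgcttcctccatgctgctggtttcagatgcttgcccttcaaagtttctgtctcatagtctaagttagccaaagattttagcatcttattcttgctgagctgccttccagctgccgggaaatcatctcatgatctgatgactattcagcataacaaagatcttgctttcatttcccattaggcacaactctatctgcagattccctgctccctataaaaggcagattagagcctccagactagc
Ccl28 promoter, chr13:119623569-119623818, plus strand: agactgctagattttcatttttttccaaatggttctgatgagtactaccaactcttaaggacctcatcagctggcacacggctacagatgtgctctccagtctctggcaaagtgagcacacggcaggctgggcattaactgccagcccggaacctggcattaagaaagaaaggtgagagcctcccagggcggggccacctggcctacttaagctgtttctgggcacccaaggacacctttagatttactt
The fifth sequence is bases 15 to 34 of the probe that represents Cxcl11, all of it a stretch that probes of other genes also hold.
Cxcl11 probe stretch: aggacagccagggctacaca

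The NF-kB motif was searched on both strands as GGG, any pair of bases (NN), then TTTCC. In Cxcl1 it matched 2 times, starting 71 and 89 bases before the start, and in Ccl9 1 time, starting 35 bases before it. Among 32851 RefSeq promoter windows of this length 1.41% held a match, and 6 of the 39 members found among them did, namely Ccl20, Ccl9, Ccr3, Cxcl1, Cxcl2 and Cxcl3. An interferon response motif (GAAA, NN, GAAA) was in 2.98% of all windows and in 3 members, Ccl19, Cxcl10 and Cxcl14. The AP-1 motif TGANTCA was in 6.75% of windows and 5 members, the C/EBP motif TTGCNNAA in 9.56% and 2 members, and the STAT motif TTCNNNGAA in 7.02% and 4 members. In Ccl9 the AP-1 match began 53 bases before the start and did not overlap the NF-kB match. In Cxcl13 a C/EBP match began 164 bases before the start. These are matches of letters, not measured binding.

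Of the 54 members, 35 were well above background on all 4 arrays, 3 on 3 arrays, 2 on 2 arrays, 2 on 1 array and 12 on none. Control array 1 had 39 members above background, control array 2 had 42, MN array 1 had 39 and MN array 2 had 35. The 12 that were not above background on any array were 7 ligands (Ccl11, Ccl20, Ccl22, Ccl26, Cxcl2, Cxcl3 and Cxcl5) and 5 receptors (Ccr1, Ccr1l1, Ccr4, Cxcr2 and Xcr1). Cxcl2, Cxcl3 and Cxcl5 are the relatives of Cxcl1 that attract neutrophils, and Cxcr2 is their receptor. Ccl3 was above background on control array 2 and MN array 1, and Ccl7 and Cxcl15 on control array 2 alone. The test took genes with a probe above background in both samples of the control group, of the MN group, or of both; 39 members met this, 25 ligands and 14 receptors. Ccl1, Cxcl17, Xcl1 and Cxcr5 passed through the control arrays only, and no member passed through the MN arrays only.

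Levels below are log2 of the processed signal minus the array's own 75th percentile, so that 0 is that percentile and 1 unit is a 2-fold step. They are comparable between arrays for 1 probe and not between probes. In the limma fit over 25296 genes, 0 members passed an adjusted p of 0.05, against 0.0198% of all genes, and the smallest adjusted p of a member was 0.192. At an unadjusted p under 0.05 there were 9 members, and 7.03% of all genes. The 7 of these that were higher in MN were all ligands, 28% of the 25 tested, where 3.54% of all genes tested met the same rule. The 2 that were lower in MN were both receptors, 14.3% of the 14 tested, against 3.49% of all genes. No ligand was lower and no receptor higher by this rule. The same 7 ligands were the members higher by at least 0.5 (4.52% of all genes), and 2 receptors, Cxcr4 and Cxcr5, had fitted differences of -0.5 or lower (7.2% of all genes). Cxcr5 entered the test through the control arrays alone and was not above background in MN, so its size there is not measured. The 7 ligands were above background on all 4 arrays, so none of them entered the test through 1 group. With the slide as a block in the fit, 7 ligands were higher and 4 receptors lower at an unadjusted p under 0.05, against 6.29% and 9.05% of all genes. Cxcr5 was 1 of those 4, and 0 members passed the adjusted threshold.

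By the order of the arrays, 9 ligands and 1 receptor had both MN arrays above both control arrays, where 13.2% of all genes did. In the opposite order were 2 ligands and 6 receptors, where 19.9% of all genes were. Cxcr5, which entered the test through the control arrays alone, was among these receptors. The median difference, MN minus control, was 0.01 over the ligands and -0.22 over the receptors on the log2 scale, and -0.05 over all genes. Of the ligands 14 of 25 had a difference above 0, of the receptors 4 of 14, and of all genes 38.6%, the remaining 61.4% of genes lying below 0. Within slides 1 and 2 the ligand median was 0.24 and -0.023, and the receptor median -0.13 and -0.21. The ligand median had no stable sign: it was -0.028 with normexp background correction and 0.17 with quantile normalization. Ccl1, Cxcl17, Xcl1 and Cxcr5, which passed through the control arrays only, are part of these counts and medians. With only genes above background on all 4 arrays, the ligand median was 0.092 and the receptor median -0.20.

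**Figure D1:**
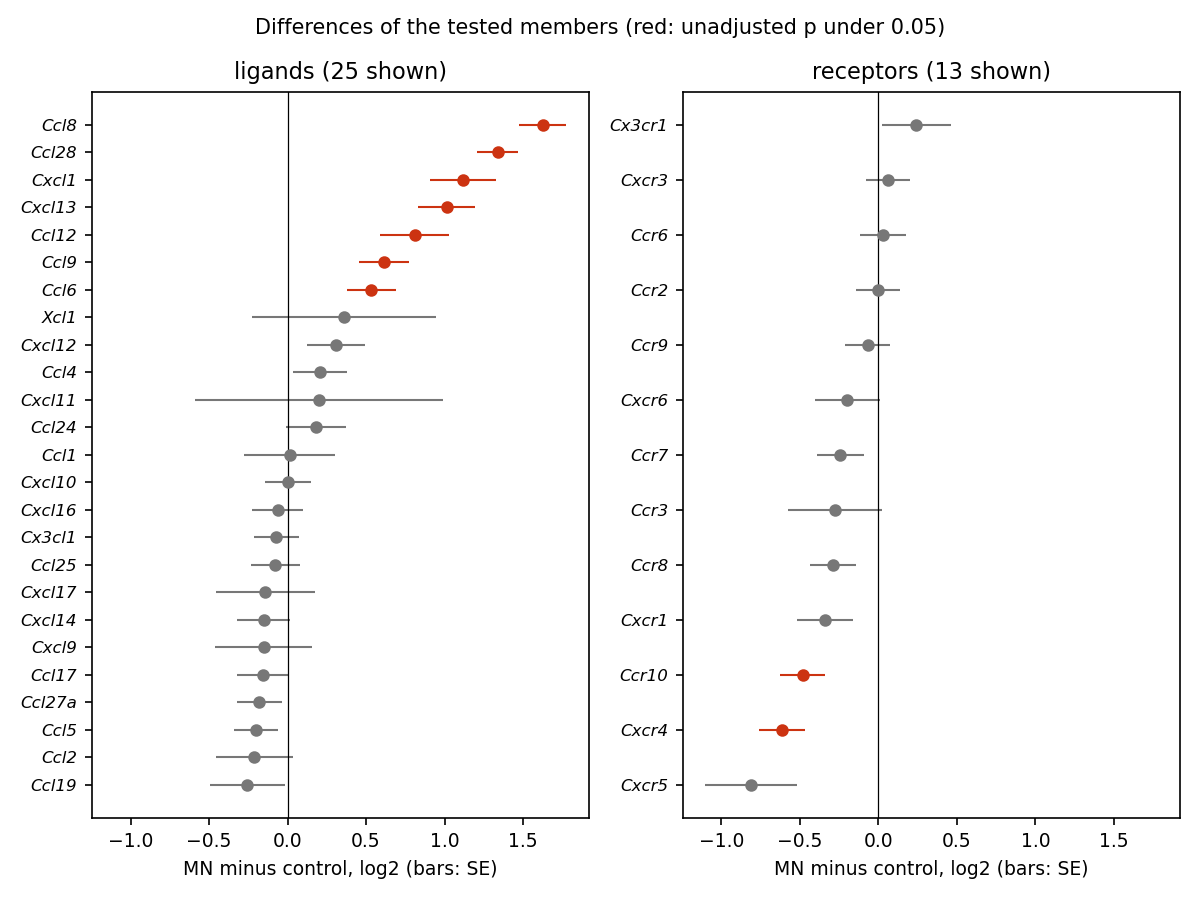
MN minus control on the log2 scale (horizontal axes) for the 25 tested ligands and 13 of the 14 tested receptors, each with its SE; red marks an unadjusted p under 0.05. The 7 red ligands lie between 0.53 and 1.63, the 2 red receptors at -0.48 and -0.61.

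The CC ligands that attract monocytes were represented by Ccl2, Ccl7, Ccl8 and Ccl12, of which 3 were tested. Ccl8, a monocyte attractant that in the mouse acts on Ccr8, had the largest difference of any member. Its level was -3.33 and -3.52 in control 1 and 2, and -1.84 and -1.76 in MN 1 and 2. The groups did not overlap, and the difference was 1.63 ± 0.15 (SE), or 3.09-fold (limma adjusted p = 0.192). Ccl12, a Ccr2 ligand close to Ccl2 in sequence, stood at -3.32 and -2.84 in control and at -2.33 and -2.22 in MN. Both MN arrays were above both control arrays, and the control arrays were further apart than the MN arrays (difference 0.81 ± 0.22, adjusted p = 0.563). With normexp the difference was 1.08 for Ccl8 and 0.41 for Ccl12. Ccl2, the best known monocyte attractant in kidney disease, behaved otherwise: -1.12 and -1.54 in control and -1.33 and -1.75 in MN. The groups overlapped (difference -0.21 ± 0.25, from 10 spots per array), and within each slide MN was lower by nearly the same amount, -0.21 on slide 1 and -0.21 on slide 2 (adjusted p = 0.424 with the slide as a block).

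Among the inflammatory CC ligands, Ccl9 and Ccl6 were higher on both MN arrays. Both are made by macrophages and other myeloid cells and are known as Ccr1 ligands. Ccl9 was at -0.91 and -1.04 in control and at -0.25 and -0.47 in MN, a difference of 0.61 ± 0.16 (adjusted p = 0.547). Ccl6 was at 0.07 and -0.12 in control and at 0.58 and 0.43 in MN, a difference of 0.53 ± 0.16 (adjusted p = 0.591). In neither gene did the groups overlap, and normexp gave 0.54 and 0.46. The others of this group differed less. Ccl5, made by T cells and epithelium, was at 0.21 and 0.35 in control and at 0.11 and 0.06 in MN, lower on both MN arrays (difference -0.20 ± 0.14, adjusted p = 0.988). Ccl4 differed by 0.21 ± 0.17, and by -0.028 with normexp.

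Ccl28, a mucosal and epithelial chemokine that binds Ccr10 and Ccr3 and attracts antibody-secreting cells, had the closest replicates of the higher ligands. It stood at -2.19 and -2.25 in control and at -0.87 and -0.88 in MN. The groups lay far apart relative to their spread: 1.34 ± 0.13, or 2.53-fold (adjusted p = 0.213), with 1.32 on slide 1, 1.36 on slide 2 and 1.02 with normexp. The other ligands of this group had smaller differences, -0.18 for Ccl27a, which shares Ccr10 with Ccl28, and -0.08 for Ccl25, the ligand of Ccr9. The Ccl28 probe was placed by the file headers on mm9 in an unplaced part of chromosome 13.

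Cxcl13, which draws B cells into lymphoid follicles through Cxcr5, was at -4.59 and -4.29 in control and at -3.52 and -3.34 in MN. The groups did not overlap and the difference was 1.01 ± 0.18 (adjusted p = 0.388). Its signal was dim on every array, and with normexp the difference was 0.35. Ccl19, the other lymphoid chemokine measured, binds Ccr7 on dendritic cells and T cells. It was at -1.14 and -1.53 in control and at -1.38 and -1.80 in MN, so that the groups overlapped (difference -0.26 ± 0.24). Its other probes gave 0.06 and 0.12, opposite in sign.

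Cxcl1 was the single tested member of the neutrophil-attracting CXC ligands. It stood at -4.57 and -4.32 in control and at -3.53 and -3.13 in MN. Both MN arrays were above both control arrays, by a mean of 1.12 ± 0.21 (2.17-fold, adjusted p = 0.419), and normexp gave 0.41. The Cxcl1 signal, like that of Cxcl13, was dim on every array, so the size of this difference depends on the background correction. The neutrophil markers S100a8 and S100a9 differed in the same direction, by 1.49 ± 0.14 and 0.93 ± 0.14, and the summed signal of the neutrophil list was 45.0 and 57.5 in control and 63.6 and 70.0 in MN. Most of that sum came from the probe of Csf3r, which differed by 0.38 ± 0.18. The sum therefore says little of the other markers in the list. Ly6g, the marker that defines mouse neutrophils, differed by -0.24 ± 0.28. The part of neutrophils in the Cxcl1 difference was not tested.

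**Figure D2:**
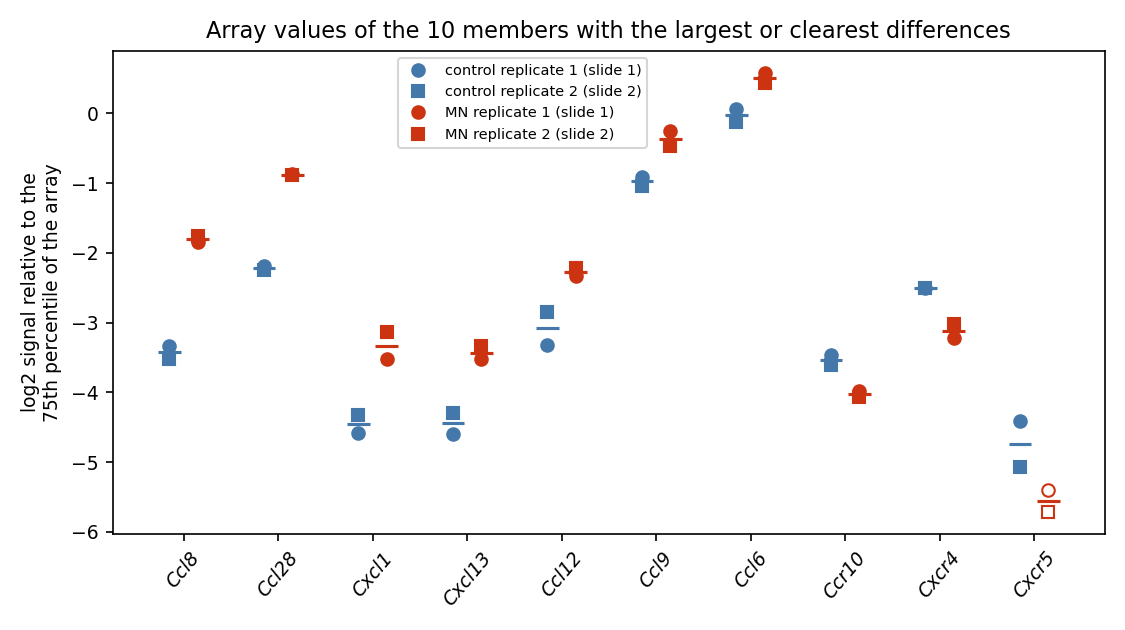
Log2 level (vertical axis) on each of the 4 arrays for the 9 members at an unadjusted p under 0.05 and for Cxcr5; circles are slide 1, squares slide 2, horizontal bars group means, and open symbols spots not well above background. The MN symbols of the 7 ligands on the left lie above the control symbols, those of Cxcr4, Ccr10 and Cxcr5 below, and the Cxcr5 symbols of MN are open.

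The interferon-induced ligands of Cxcr3, which attract activated T cells, showed no difference beyond their spread: 0.0040 ± 0.15 for Cxcl10, -0.15 ± 0.31 for Cxcl9 and 0.20 ± 0.79 for Cxcl11. Cxcl11 was a case apart. Its representing probe read 5.95 and 7.81 in control 1 and 2, and 6.49 and 7.67 in MN 1 and 2, so it followed the slide and not the group. Control 2 exceeded control 1 by 1.87 and MN 2 exceeded MN 1 by 1.17, while the medians of the same differences over 32627 probes above background on all arrays were 0.055 and -0.0046. The second Cxcl11 probe also read higher on slide 2 (0.75 and 1.87 in control, 1.38 and 2.04 in MN). It shared no run of 20 or more bases with a probe of another gene. The cause of the difference between slides was not tested. The stretch printed above is held by the probes of 4 other genes, Elk1, Med16, Ndor1 and Glrx2. Those probes were higher on slide 2 as well, by 0.87 to 1.59 in control and by 0.38 to 1.02 in MN. The representing Cxcl11 probe shared runs of 20 or more bases with probes of 7 other genes, the longest 31 bases. Of these genes 5 held the run on the same strand and the rest only as its reverse complement. Signal of Cxcl11 and signal of such shared stretches cannot be told apart on this probe (mm9, chromosome 5, 92788567 to 92788626, minus strand, per the files). Without Cxcl11 the ligand median was 0.0090.

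Of the ligands that tissues make at rest, Cxcl12, which holds leukocytes and progenitors through Cxcr4, was at 3.80 and 3.49 in control and at 4.04 and 3.86 in MN. Its groups did not overlap, and the difference of 0.31 ± 0.18 was about as large as the distance between the control arrays (adjusted p = 0.937). A second probe gave 0.37. Cxcl14 differed by -0.15 and Cxcl17 by -0.14. The membrane-anchored ligands Cx3cl1 and Cxcl16 differed by -0.07 and -0.06. Xcl1, made by activated T and NK cells, differed by 0.36 ± 0.59, with its MN arrays at -3.40 and -5.01 on either side of both control arrays (-4.62 and -4.51). The ligands linked to type 2 responses and eosinophils differed by 0.01 (Ccl1), -0.16 (Ccl17) and 0.18 (Ccl24).

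The largest receptor differences were smaller than the largest ligand differences. Of the 14 tested receptors 10 were below 0, Cxcr5 included, where 61.4% of all genes were. Cxcr4, the receptor of Cxcl12 found on most leukocytes, was at -2.51 and -2.50 in control and at -3.22 and -3.01 in MN. Its groups did not overlap, and the difference was -0.61 ± 0.15, 1.53-fold higher in control (adjusted p = 0.520). Ccr10, the receptor of Ccl27a and Ccl28, was at -3.47 and -3.61 in control and at -3.98 and -4.06 in MN. Here too the groups were separate (-0.48 ± 0.14, adjusted p = 0.599), with -0.19 after normexp. Cxcr5, the B cell receptor for Cxcl13, was at -4.41 and -5.07 in control and at -5.39 and -5.71 in MN. It was above background on both control arrays and on neither MN array, so its level in MN was not measured (adjusted p = 0.712). With MN set to the lowest level called above background on each array, control would be 1.20-fold higher. That is no strict bound, because probes not called above background can read higher, as Cxcl17 did on MN 2 (-4.51). The fitted difference of -0.81 became -0.21 with normexp.

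Ccr2, Cx3cr1 and Cxcr3, carried by monocytes, macrophages and T cells, gave differences from -0.0015 to 0.24. Ccr2, the receptor of inflammatory monocytes, was at -2.68 and -2.55 in control and at -2.64 and -2.59 in MN, a difference of -0.0015 ± 0.14. Cx3cr1, which marks resident kidney macrophages and dendritic cells, was at -0.27 and -0.64 in control and at -0.05 and -0.38 in MN. Its groups overlapped, and the difference was 0.24 ± 0.22, with 0.12 and 0.24 from its other probes. Cxcr3, on activated T cells, was at -1.99 and -1.95 in control and at -1.83 and -1.98 in MN (0.06 ± 0.14, and -0.04 with normexp). Cxcr1, a neutrophil receptor, differed by -0.34, and Ccr6, the receptor of Ccl20, by 0.03. Ccr8 differed by -0.29 by its brighter probe, and a second probe, above background on slide 2 only, gave 1.67.

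Ligands were then set beside their receptors for 25 textbook pairs, a list drawn up after the values were known. Both genes were tested in 16 pairs. The ligand was higher and the receptor lower in 7 pairs, the reverse held in 2, both were higher in 2 and both lower in 5. In 5 pairs the ligand was higher by at least 0.3, a limit also set after the values were known, and in these the receptor difference was below 0 by the probe that stands for the gene: -0.29 for Ccr8 beside Ccl8, -0.48 for Ccr10 beside Ccl28, -0.61 for Cxcr4 beside Cxcl12 and -0.0015 for Ccr2 beside Ccl12. The last of these was 0.04 with quantile normalization. The remaining receptor, Cxcr5 beside Cxcl13, was not above background in MN, so the size of its fitted difference (-0.81) was not measured. The second Ccr8 probe, above background on slide 2 only, gave 1.67, the opposite sign. Whatever the ligand did, 10 of the 14 tested receptors (Cxcr5 included) and 61.4% of all genes were below 0. The pairs share genes and no test was made of them. Ccr1, the receptor of Ccl6 and Ccl9, and Cxcr2, the receptor of Cxcl1, were not above background on any array, so those ligands have no receptor value beside them.

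**Figure D3:**
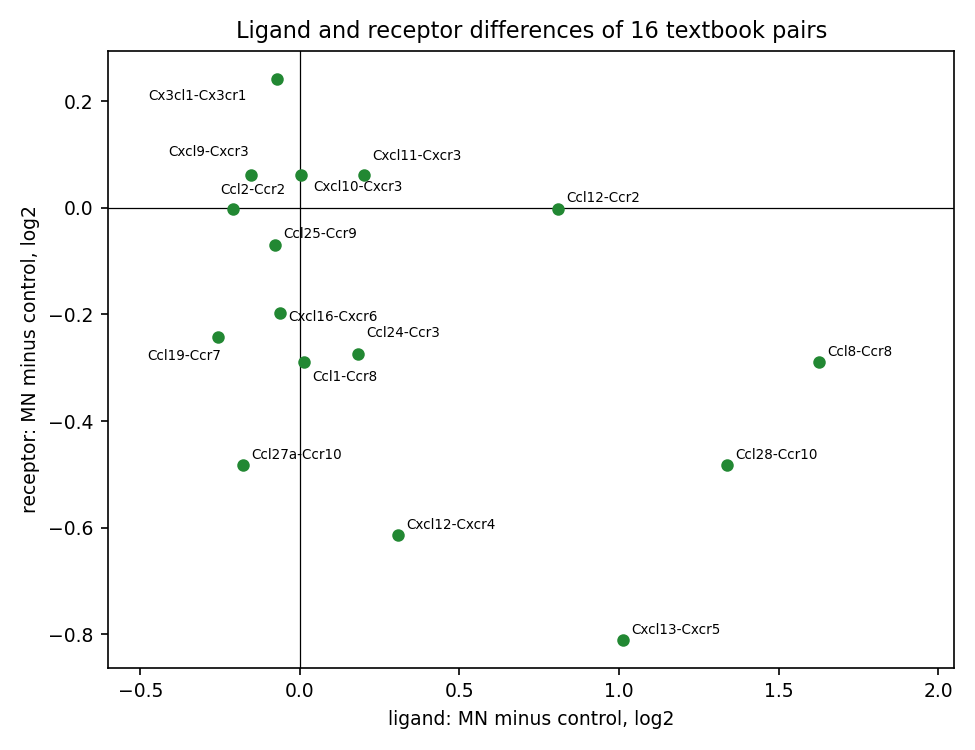
Difference of the receptor (vertical axis) against that of its ligand (horizontal axis), MN minus control on the log2 scale, for the 16 pairs with both genes tested. The pairs at the lower right, with the ligand above 0.3, have receptor differences below 0, as do 10 of the 14 tested receptors and 61.4% of all genes. The Cxcr5 difference (-0.81) rests on MN values not above background.

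Many chemokine genes lie side by side, and the higher ligands included neighbours. On chromosome 11 the probes of Ccl2, Ccl7, Ccl11, Ccl12, Ccl8 and Ccl1 follow each other in that order (mm9, positions 81850650 to 81990510, per the files). Ccl12 (81916764 to 81916823) and Ccl8 (81930108 to 81930167) are adjacent there and differed by 0.81 and 1.63, while Ccl2 at one end differed by -0.21 and Ccl1 at the other by 0.01. The next run on that chromosome is Ccl5, Ccl9, Ccl6, Ccl3 and Ccl4 (83339296 to 83478111). In it Ccl9 and Ccl6, again adjacent, differed by 0.61 and 0.53. Of the Cxcl5, Cxcl3, Cxcl15, Cxcl1 and Cxcl2 run on chromosome 5 (91190490 to 91334593) only Cxcl1 was tested. A run of receptor genes on chromosome 9 includes Ccr9, Cxcr6, Xcr1, Ccr1, Ccr1l1, Ccr3 and Ccr2 in that order. Of these, Ccr9 differed by -0.07, Cxcr6 by -0.20, Ccr3 by -0.27 and Ccr2 by -0.0015, and none had an unadjusted p under 0.05.

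**Figure D4:**
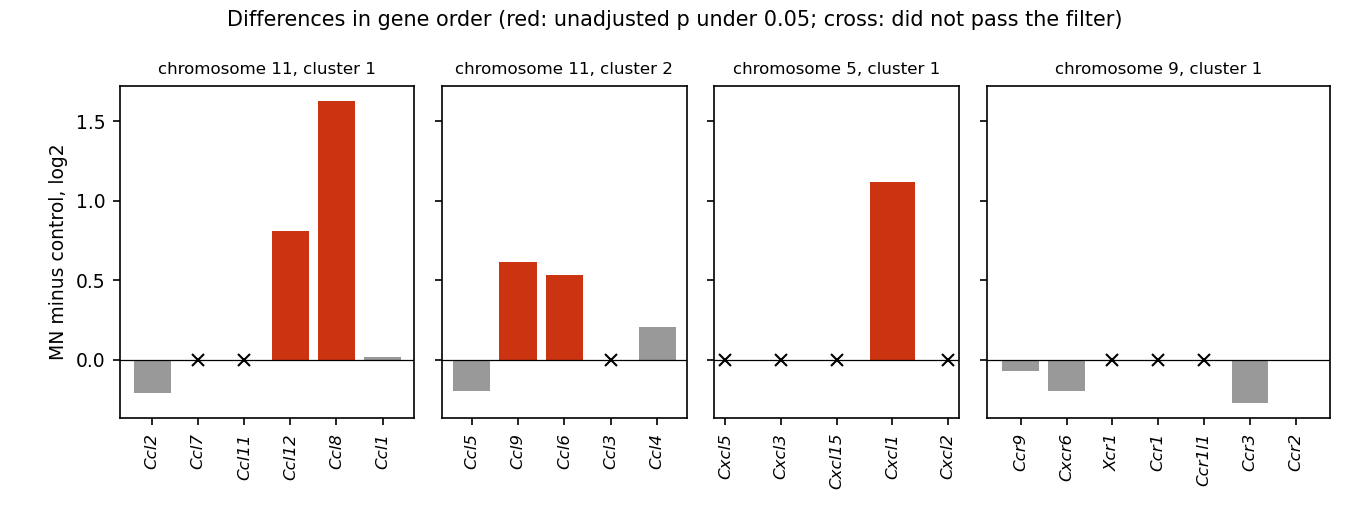
MN minus control on the log2 scale (vertical axis) for members in the order of their probes along 2 runs on chromosome 11 and runs on chromosomes 5 and 9; red bars have an unadjusted p under 0.05 and crosses did not pass the filter. Red bars stand next to each other for Ccl12 and Ccl8 and for Ccl9 and Ccl6.

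Other genes of the chemokine system were read from lists. Of 10 atypical receptors and chemokines named otherwise, 8 were tested and 0 passed the adjusted threshold, with a median of -0.04. The largest differences there were 0.43 ± 0.14 for Rarres2, which makes the attractant chemerin, 0.33 for Ackr2, a scavenger of CC chemokines, and -0.16 for Ackr1, which carries chemokines across endothelium. Of 24 genes that act downstream of the receptors 21 were tested, 0 passed and the median was -0.04. Grk5, which desensitizes receptors, differed by 0.35. Pik3r5 was above background on the control arrays alone, and its fitted -0.31 was -0.13 with normexp. Among 15 tested genes of NF-kB and of cytokines that induce chemokines the median was -0.14 and 0 passed. Relb, an NF-kB subunit, differed by -0.47 ± 0.15. Ifng and Il17a were each above background on 3 arrays and entered the test through control alone. They differed by -0.26 and -0.32 with normexp and both by -0.54 without it. Tnf, Il1a, Il6, Il4 and Il13 did not pass the filter. Of 16 adhesion and chemokine-display genes 15 were tested and 0 passed (median -0.05). Itgam, the integrin chain of myeloid cells, differed by 1.13 ± 0.45. Itgal differed by -2.21 ± 1.52, with -0.03 on slide 1 and -4.38 on slide 2. It was at -2.11 and 2.17 in control and at -2.14 and -2.21 in MN, so the difference rests on control array 2 alone.

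Markers of the cells that make or answer chemokines are given beside them. For the counts that follow, 38.6% of all genes tested were above 0 and 61.4% below, with a median of -0.05. Of 10 tested monocyte and macrophage markers 7 were above 0, with a median of 0.18 and 0 past the adjusted threshold. The largest differences were Itgam, Ms4a7 at 0.84 ± 0.15 and Mrc1 at 0.45 ± 0.14, and the summed signal of the list was 171 and 185 in control and 181 and 199 in MN. Most of that sum came from the probe of Ly6c1, which differed by 0.10 ± 0.15. The sum therefore says little of the other markers in the list. The 7 neutrophil markers tested had a median of 0.50. All 8 tested T and NK markers were below 0 (median -0.15, -0.12 to -0.49), though 1 was above 0 with quantile normalization. The B and plasma cell list had a median of -0.24, with 6 of 8 genes below 0. In it, Jchain, the joining chain of secreted antibody, differed by 3.23 ± 0.15 (adjusted p = 0.0665) and Mzb1 by 0.85 ± 0.36, while the B cell marker Ms4a1 differed by -0.60 ± 0.15 and Sdc1, carried by plasma cells and epithelium, by -0.42 ± 0.15. Dendritic markers had a median of -0.21, with Cd209a at -0.84, Zbtb46 at -0.70 and Flt3 at -0.21, but Itgax at 0.10 and Clec9a at 0.27. Of 5 podocyte markers 4 were above 0 (median 0.60, with Nphs1 at -0.019), as were all 5 fibroblast and mesangial markers (median 0.40), and endothelial markers had a median of -0.02. In the adipocyte list 2 of 5 genes passed the threshold, Cfd and Adipoq, both higher in MN. Cfd was above background on 3 arrays (-5.29 and -4.98 in control, 1.59 and 1.99 in MN) and Adipoq on the 2 MN arrays alone, so the sizes rest on control values at or near background. The part of any of these cell types in the differences of the chemokines and receptors was not tested.

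**Figure D5:**
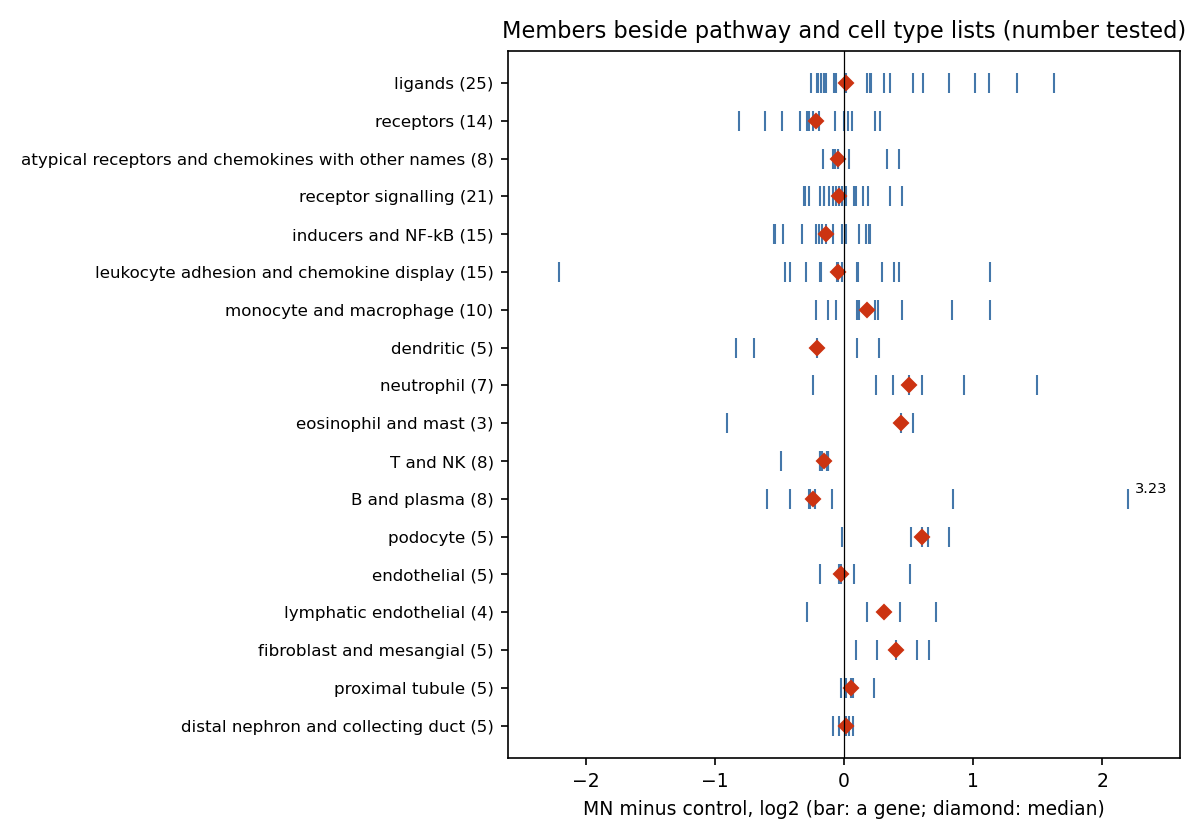
MN minus control on the log2 scale (horizontal axis) for each tested gene (bars) and the median (diamonds) of the ligands, the receptors and the pathway and cell type lists, with the number tested in brackets; Jchain at 3.23 is drawn at the edge, and the adipocyte list is not drawn. The ligand bars reach to the right up to 1.63 with a median of 0.01, the receptor bars lie mostly to the left with a median of -0.22.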

How the data were processed

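Total RNA labelled with Cy3 was hybridized to 1-colour Agilent mouse arrays, per the labels' protocols. The scanner files as deposited give the intensity of each spot, unlogged. Feature Extraction 10.5.1.1 had subtracted background and detrended it, per the file headers. The deposited value table of log2 values comes with no stated method. It matched the values below minus the control mean (correlation over 0.999), with medians of 0.026 and -0.026 in its control columns and -0.033 and -0.044 in its MN columns, and with replicates 1 and 2 exchanged in both groups; which order is right is unknown, and it served as an alternative only.

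Control spots and non-uniform spots were left out, spots of a probe averaged, and log2 processed signal taken minus each array's 75th percentile. A gene was represented by its brightest tested probe. Genes outside the members were named through a RefSeq table (GRCm38.p6) by accession (28020 probes), symbol (3423) or synonym (295), otherwise by the file (23943); the slides' annotations differed for 1831 probes and that of slide 2 was used. Members kept the file's name. R 4.3.3 with limma 3.58.1 fitted and tested the difference (lmFit, then eBayes; two-sided; p-values of 25296 genes adjusted by Benjamini-Hochberg; residual df 2, prior df 1.99), and the scripts were tested on simulated data. Tables used pandas 2.3.3 and numpy 2.4.6 under Python 3.11.15, and figures used matplotlib 3.10.9.

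The fit had no block. The replicate number coincides with the slide, and arrays with the same number deviated together from their groups (correlation 0.63 over all genes, 0.53 over the members). Values on each array are given for members at an unadjusted p under 0.05, members differing by at least 0.5, and the 3 largest differences in each direction among ligands and receptors. Members, lists and pairs were chosen with earlier results of these data known. The alternatives were normexp (offset 50), quantile and median scaling, the value table, filters, probe rules, a variance trend, the block, an adjusted p of 0.1 and each array left out. The members' other probes and the ligand median without Cxcl11 were added after the data were seen. A few results are not reported here.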

Additional observations from a re-analysis of the deposited data

How the results depend on the processing

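With 4 arrays the precision is low. No member passed the adjusted threshold in the fit reported (0 of 39 in limma, 9 at an unadjusted p under 0.05) or under any alternative run, a threshold of 0.1 included. The 9 members at an unadjusted p under 0.05 became 7 with normexp, 8 with quantile normalization and 11 with the replicate block; leaving out 1 array gave from 4 (without MN replicate 1) to 6, with 5 without control replicate 1, fits in which the lone array of a group is assumed to vary like the other group. With the replicate block, 7 ligands were higher and 4 receptors lower at that p (Cxcr1, Cxcr4, Cxcr5 and Ccr10), against 6.29% and 9.05% of all genes, and the smallest adjusted p of a member was 0.163. The receptor median of -0.22 was -0.069 with no filter and from -0.17 to -0.093 with 1 array left out (-0.13 without control replicate 2, -0.093 without MN replicate 2). Genes called over the whole array numbered 5, but 15 with normexp, 20 with quantile normalization, 11 with median scaling, 16 with a variance trend and 22 at an adjusted p of 0.1; 0 were called with no filter, with the strict filter, with the replicate block and with any 1 array left out. Of 211 values of the 16 members taken by the rule for values by array, 206 kept direction and side of the threshold. Much of this was fixed in advance, so the count does not measure robustness. The filters, the variance trend and the block returned the same difference for these genes wherever they were tested. Median scaling and the value table moved all of them by nearly the same small amount, and no member was called in the fit reported. The 5 that turned were Ccl19 by its other probes (0.12 and 0.058), Ccl2 without control replicate 1 (9.45e-06, and down to -0.42 without control replicate 2), and Cxcr3 with normexp (-0.042) and without MN replicate 1 (-0.013, and up to 0.14 without MN replicate 2). The cause of these changes was not tested.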
